A study of Mus musculus with 8 samples.

Results

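The transcripts of 8 genes of sterol synthesis and of the SREBP pathway were followed in YTHDF3 RIP-seq of mouse embryonic fibroblasts (MEFs). The genes were Srebf1, Srebf2, Scap, Insig1, Hmgcs1, Sqle, Fasn and Scd2, and a peak was counted for a gene when the gene name deposited with the peak was one of these. By this rule 77 deposited peaks belonged to the genes, and 76 of them passed the target thresholds of the study, an IP/input fold of at least 2 with a p under 0.0001. After merging of overlapping peaks from the 4 lists, these 76 peaks fell into 38 of 39979 regions, and 3 of those 38 were called in all 4 lists (of 6531 regions in all 4). YTHDF3 is a protein that binds N6-methyladenosine (m6A) in RNA, and RIP-seq sequences the RNA that an antibody to Ythdf3 pulls down (IP) beside the input RNA. All cells were wild type C57BL/6 MEFs from embryos of day 13.5 at passages 5 to 6. They were kept in normal medium or in nutrient-deprived medium for 2 h, with 2 cultures and 2 IP lists per condition. All 4 cultures were thus of 1 strain and 1 genotype, and no culture lacking Ythdf3 was analysed here. Nothing in the labels says whether the replicates came from separate embryos, so p-values measure the spread between these cultures, which may be technical.

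The kept peaks held 8818619 to 19271667 IP reads and 2507434 to 5157523 input reads per list. These are reads inside peaks and not the depth of the libraries, so a gene without a peak may be unbound, weakly expressed or enriched below 2-fold. Of 8 fibroblast marker genes, 4 had a peak over their exons and 2 (Pdgfra and Pdgfrb) had one in all 4 lists, while Col1a1, Vim, Fn1 and Thy1 had none. Of 8 markers of epithelial, endothelial, blood, neural and muscle cells, 0 had a peak. Peak lists show RNA enriched in the IP only, so they are a weak check of the cell type.

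SREBPs are transcription factors made as membrane proteins of the endoplasmic reticulum. The escort Scap carries them to the Golgi for cleavage when sterols are scarce, and Insig proteins hold Scap back when sterols are plentiful. Srebf2 chiefly drives genes of cholesterol synthesis and uptake and Srebf1 those of fatty acid synthesis, and fibroblasts rely on this loop to keep membrane cholesterol steady. Among the targets, Hmgcs1 makes HMG-CoA early in the mevalonate pathway, Sqle oxidises squalene at a rate-limiting step of sterol synthesis, Fasn builds palmitate and Scd2 desaturates fatty acids.

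GGAC, the core of the sequence in which m6A is commonly placed, was searched on the transcribed strand of exons under the peaks. The windows of Sqle, Fasn and Scd2 are shown because these 3 genes held the most reads. Each is read from the RefSeq genome sequence (GRCm38.p6, the assembly of mm10), has up to 12 coding bases on each side, ends at the exon border, and has GGAC in capitals. Sqle lies on the plus strand, and exons under its peaks held 19 GGAC, untranslated bases included. The coding bases among them held 7 GGAC, which are shown.
Sqle exon 1, chr15:59315845-59315864: atgtGGACttttcttggcat
Sqle exon 2, chr15:59317858-59317885: ctcgttcgtgacGGACccggaagtgatc
Sqle exon 4, chr15:59322896-59322923: cgtgcaatacaaGGACaaggagactggg
Sqle exon 4, chr15:59322911-59322932: caaggagactggGGACaccaag
Sqle exon 5, chr15:59323635-59323662: gttgttgcggatGGACtcttctccaagt
Sqle exon 7, chr15:59324498-59324525: atggtcgtctgcGGACcatgccggccag
Sqle exon 9, chr15:59326589-59326616: ggtcaagaaaaaGGACccattcctttgt
The first of these begins at the start codon, and those of exons 1 and 5 read GGACT. Fasn lies on the minus strand, and its region called in all 4 lists held 2 coding GGAC.
Fasn exon 2, chr11:120822739-120822766: cattggtggtgtGGACatggtcacagat
Fasn exon 3, chr11:120822118-120822145: ggcacacacaatGGACccccagcttcgg
Scd2 lies on the plus strand, and exons under its peaks held 24 GGAC and 5 GGACT, untranslated bases included. The coding bases of its 6 exons held 2 GGAC and no GGACT.
Scd2 exon 2, chr19:44294943-44294970: ccaccttctgggGGACagcagaatggag
Scd2 exon 4, chr19:44299755-44299782: gggcggaaaactGGACatgtctgacctg

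The deposited name is that of the nearest annotated start site, and it did not always match the exons under a peak. Of 29 kept peaks named Srebf1, 3 overlapped exons of Srebf1 and 22 lay in exons of Tom1l2, the neighbouring gene, which encodes an adaptor of endosomal sorting. One of the 3 regions called in all 4 lists was such a peak set. In the other direction, 10 of 12 peaks over exons of Srebf2 were deposited as Mir33, the microRNA that lies within Srebf2, and 6 of 10 over exons of Scd2 were deposited as Mir5114. One of 3 peaks named Hmgcs1 lay in Nim1k. All 24 peaks named Sqle and all 14 named Fasn overlapped exons of their own gene. Both assignments are therefore given. By exon overlap with any GENCODE transcript, the 8 genes held 67 kept peaks in 34 regions, of which 2 were called in all 4 lists. Peaks were called without regard to strand, so reads of overlapping genes on opposite strands cannot be told apart.

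By exon overlap, Sqle and Fasn had peaks in all 4 lists, Srebf2 in 3, and Srebf1, Hmgcs1 and Scd2 in 2. Scap and Insig1, the escort and its retention factor, had no peak in any list by either assignment.

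**Figure D1:**
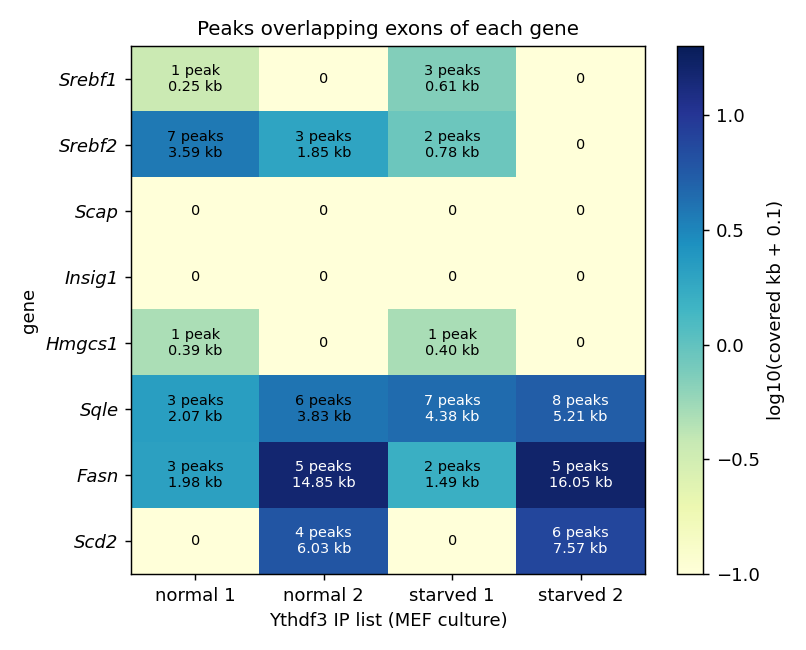
Number of kept peaks overlapping exons of each gene (rows) in each IP list (columns), with the kb they covered, coloured by log10 of covered kb plus 0.1. Fasn covered 14.85 and 16.05 kb in the replicate 2 lists against 1.98 and 1.49 kb in the replicate 1 lists, and Scd2 had peaks in the replicate 2 lists only.

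Most of these peaks had low folds compared with other peaks of the same list. The median fold of peaks over exons of the 8 genes was 2.44 in normal replicate 1 (15 peaks), 2.29 in normal replicate 2 (18 peaks), 2.35 in starved replicate 1 (15 peaks) and 2.44 in starved replicate 2 (19 peaks). The medians of all kept peaks in the same lists were 3.11, 3.06, 3.27 and 3.11. In all, 57 of 67 peaks lay below the median of their list, and the lowest fold was 2.02. They held more reads, with a median of 274 to 1000 IP reads against 94 to 135 for all peaks. Peaks were not matched for reads, and a peak of few reads passes the p limit only at a higher fold. Lower folds of these genes and higher read numbers therefore cannot be told apart here. Peaks of 1 gene share their transcript, so these counts are a description of 6 transcripts and carry no test. No pull-down without the Ythdf3 antibody was used here, and the fold of a list also rests on the factors by which the authors scaled IP and input reads.

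**Figure D2:**
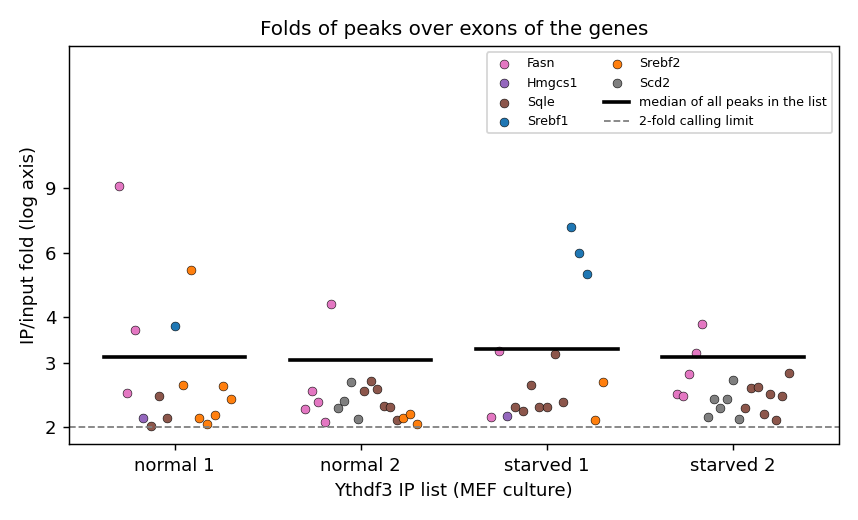
IP/input fold (log axis) of each peak over exons of the genes, by list and coloured by gene, with the median of all kept peaks of that list (black bar) and the 2-fold limit of calling (dashed). In the 4 lists 57 of 67 points lie below the bar, 3 points with 0 input reads are lower bounds, and the points above the bar belong to Srebf1, Srebf2, Fasn and no other gene.

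Of the transcription factors, Srebf2 had 12 peaks over its exons, 7 in normal replicate 1, 3 in normal replicate 2, 2 in starved replicate 1 and 0 in starved replicate 2. Most lay over coding exons 1, 6 to 8, 10, 12, 13, 15 and 16 of 19. Of the others, 1 lay over intron 1 (an exon in another GENCODE transcript) and 1 in intron 18, with 4 of its 220 bases in exon 19. Folds were 2.04 to 2.66, apart from the intron 1 peak of 18 IP and 0 input reads. Its fold was at least 5.39, computed against 3 input reads. Exon 8 (chr15:82178491-82179070) was called in both replicate 1 lists, with 815 IP and 310 input reads in normal MEFs and 1335 IP and 273 input reads in starved MEFs. Its fold was 2.12 in the normal and 2.10 in the starved culture, nearly the same. Exon 15 was called in both normal lists, with 338 and 255 IP reads and folds of 2.60 and 2.04. Whether starved replicate 2 held no Srebf2 enrichment or enrichment just under the limit cannot be read from a list of called peaks, because most Srebf2 folds elsewhere were close to 2.

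Srebf1 itself had 4 small peaks, 1 in normal replicate 1 and 3 in starved replicate 1, with 24 to 47 IP reads each. One region at an internal start site (chr11:60210311-60210560) was shared, with 47 IP and 10 input reads in the normal and 42 IP and 3 input reads in the starved culture. Its fold was 3.79 and 6.00 in turn, a difference that rests on 3 input reads and had no replicate.

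Of the sterol enzymes, Sqle had peaks over 10 of its 11 exons. There were 3 peaks in normal replicate 1, 6 in normal replicate 2, 7 in starved replicate 1 and 8 in starved replicate 2, covering 2.07, 3.83, 4.38 and 5.21 kb. The folds ran from 2.02 to 3.17 with a median of 2.32, so that many exons sat near the limit at which a peak is called or missed. Exons 7 and 8 were called in both starved lists and in neither normal list, with folds of 2.27 and 2.47 for exon 7 and 3.17 and 2.09 for exon 8. Over all genes, 1880 of 8250 regions called in 2 lists were in both starved lists, 518 in both normal lists, 1105 in both replicate 1 lists and 2958 in both replicate 2 lists. Exons 4 and 11 of Sqle were of the replicate 2 kind.

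**Figure D3:**
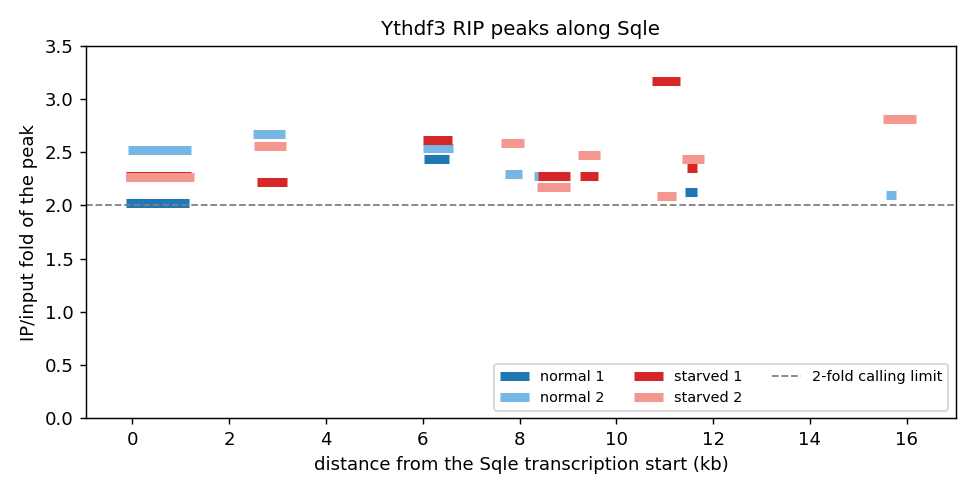
Kept peaks along Sqle, with the distance from the transcription start in kb on the x axis and the IP/input fold of the peak on the y axis, coloured by culture. All folds lie between 2.02 and 3.17, and the peak over exon 1 was called in all 4 lists.

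The region over Sqle exon 1 (chr15:59314941-59316350, 285 coding bases and 753 bases of 5′ UTR) was called in all 4 lists. It held 2099 and 2234 IP reads in the normal cultures and 3560 and 3561 in the starved ones, with 837 and 886 input reads in normal and 670 and 1047 in starved MEFs. Scaled to the library and to covered length, IP reads were 2162 and 1988 per kb in normal and 2169 and 2165 per kb in starved MEFs. The starved values lay above the normal values by less than the gap between the normal cultures. Scaled input reads were 737 and 536 per kb in normal and 613 and 707 per kb in starved MEFs, and these ranges overlapped. The IP/input fold was 2.02 and 2.52 in normal and 2.28 and 2.27 in starved MEFs, with both starved values between the normal ones.

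Hmgcs1, the other sterol enzyme, had 1 region over its own exons, at exon 1 (chr13:119690301-119690720, 163 bases of 5′ UTR). It was called in the replicate 1 lists, with 155 IP and 59 input reads in normal and 225 IP and 45 input reads in starved MEFs. The folds of 2.12 and 2.14 were nearly equal.

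Of the fatty acid enzymes, Fasn had regions over its first exon and its 42 coding exons, but the extent differed by replicate number and not by condition. The region over exons 9 to 43 (chr11:120806651-120819410) held 42180 IP and 17933 input reads in normal replicate 2 and 60564 IP and 16389 input reads in starved replicate 2. The normal list split this stretch into peaks with folds of 2.25 and 2.51, and the starved list held a peak with a fold of 2.46. In the replicate 1 lists the same stretch held 1 peak of 34 IP reads, at its 3′ end in normal MEFs. The region over exons 4 to 8 was likewise called in the replicate 2 lists alone, with 5163 and 7839 IP reads and folds of 2.35 and 2.44. At exon 1 the order turned, with peaks in both replicate 1 lists and in starved replicate 2, with 589, 754 and 489 IP reads and folds of 3.68, 3.23 and 3.84.

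The Fasn region called in all 4 lists lay over exons 2 and 3 (chr11:120821861-120823020, 280 coding bases). It held 1499 and 434 IP reads in normal and 2159 and 1619 in starved MEFs, with 487 and 210 input reads in normal and 434 and 367 in starved MEFs. Covered length differed between lists, and scaled IP reads were 1839 and 1100 per kb in normal and 1666 and 1239 per kb in starved MEFs. Scaled input reads were 511 and 362 per kb in normal and 503 and 312 per kb in starved MEFs. In both measures the replicate 1 cultures were high and the replicate 2 cultures low, and the conditions overlapped. The folds were 2.48 and 2.07 in normal and 2.13 and 3.20 in starved MEFs, lower in starved cells in replicate 1 and higher in replicate 2. The starved replicate 2 list held another peak in this region, with a fold of 2.80.

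Scd2 had 4 peaks in normal replicate 2, 6 in starved replicate 2 and 0 in either replicate 1 list. Its last exon (chr19:44302761-44306850), which is mostly 3′ UTR, held 44803 IP and 21284 input reads in normal and 70616 IP and 22390 input reads in starved MEFs. The fold there was 2.11 and 2.10. Over the 4 regions shared in replicate 2, the log2 change of the fold from normal to starved lay between -0.01 and 0.02. IP reads per kb were higher in the starved culture by 0.20 to 0.45 on the log2 scale and input reads per kb by 0.32 to 0.55, in 1 pair of cultures with no replicate.

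The third region in all 4 lists carried the name Srebf1 but lay over the last exon of Tom1l2, exon 15 of 15 (chr11:60226771-60230430, 149 coding bases and 3322 bases of 3′ UTR). It held 2756 and 1512 IP reads in normal and 5170 and 2957 in starved MEFs, with 904 and 580 input reads in normal and 1012 and 772 in starved MEFs. Scaled IP reads were 1025 and 968 per kb in normal and 1157 and 979 per kb in starved MEFs. Scaled input reads were 287 and 252 per kb in normal and 340 and 284 per kb in starved MEFs. The conditions overlapped in both. The folds were 2.46 and 2.61 in normal and 2.19 and 2.55 in starved MEFs.

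**Figure D4:**
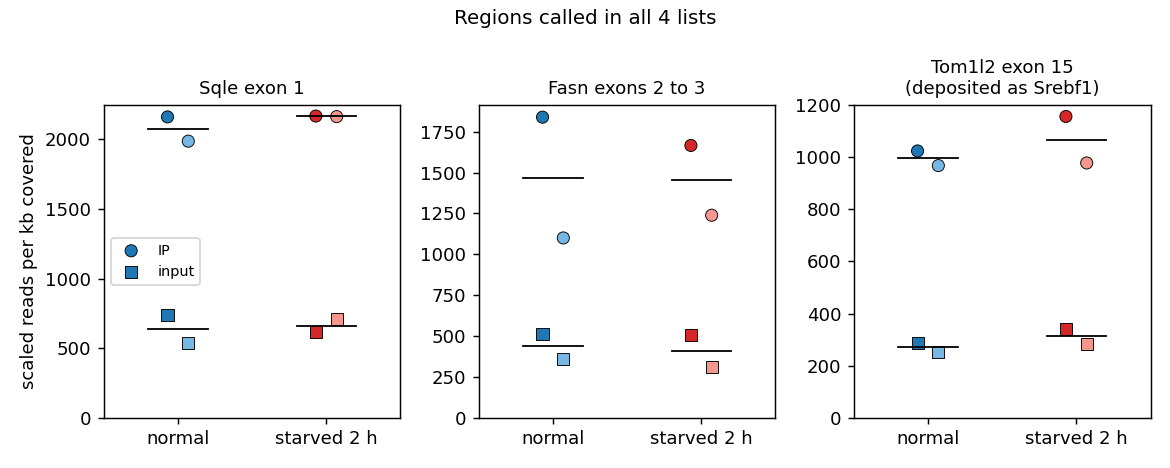
Scaled reads per kb of covered length in normal and starved MEFs for the 3 regions called in all 4 lists, with IP as circles, input as squares, replicate 1 darker and to the left, replicate 2 lighter and to the right, and bars at the mean of the 2 cultures. IP reads of Sqle exon 1 lie between 1988 and 2169 per kb in the 4 cultures, and those of Fasn exons 2 to 3 spread from 1100 to 1839 by replicate number.

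Whether starvation moved the IP/input ratio, the IP reads or the input reads of these regions was tested with edgeR across all 6531 regions. For the ratio, 0 of the 3 regions passed an adjusted p of 0.05, beside 0.0153% of all regions. For IP reads the count was 0 of 3 beside 1.12%, and for input reads 0 of 3 beside 1.09%. None of the 3 had an unadjusted p under 0.05 in any of these fits, and DESeq2 called none. The log2 change of the ratio from normal to starved was -0.02 ± 0.19 (SE, n = 2 cultures per condition) for Sqle exon 1, with an edgeR adjusted p of 0.999. It was 0.10 ± 0.21 for Fasn exons 2 and 3 and -0.13 ± 0.18 for the Tom1l2 exon, again with adjusted p of 0.999 by edgeR. The log2 change of IP reads was 0.06 ± 0.20, -0.02 ± 0.29 and 0.10 ± 0.20 in the same order, with edgeR adjusted p of 0.960, 0.991 and 0.925. The log2 change of input reads was 0.05 ± 0.25, -0.10 ± 0.31 and 0.21 ± 0.24, with edgeR adjusted p of 0.979, 0.971 and 0.907. In each case the difference was smaller than its standard error. In bulk input RNA, fewer cells with a transcript and less of it per cell cannot be told apart.

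The study's cutoff of a 1.8-fold change of IP/input, applied here to regions in all 4 lists, was passed in both replicates by 0 of the 3 regions. The share of all regions was 0.812%. Normal folds of the 3 regions lay between 2.02 and 2.61, and each list required at least 2. A 1.8-fold fall could therefore not be seen in them, only a rise. The comparison could be widened to regions over the genes' exons that were shared within 1 replicate number. In replicate 1 these were 8 regions, with log2 changes of the fold between -0.22 and 0.66 and a median of 0.06, and 0 passed the cutoff, beside 10.2% of 9579 regions. In replicate 2 they were 12 regions, with changes between -0.15 and 0.63 and a median of 0.01, and 0 passed, beside 7.6% of 13165 regions. The median over all regions was -0.06 in replicate 1 and 0.03 in replicate 2. The regions over the genes' exons come from 6 genes, which share transcripts, and are counted without a test. A region needed a fold of at least 2 in both lists to be counted. Where the normal fold was near 2, as in most of these regions, a 1.8-fold fall could not be seen. The counts of 0 therefore cannot be set against the shares of all regions, as all kept peaks had higher median folds.

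**Figure D5:**
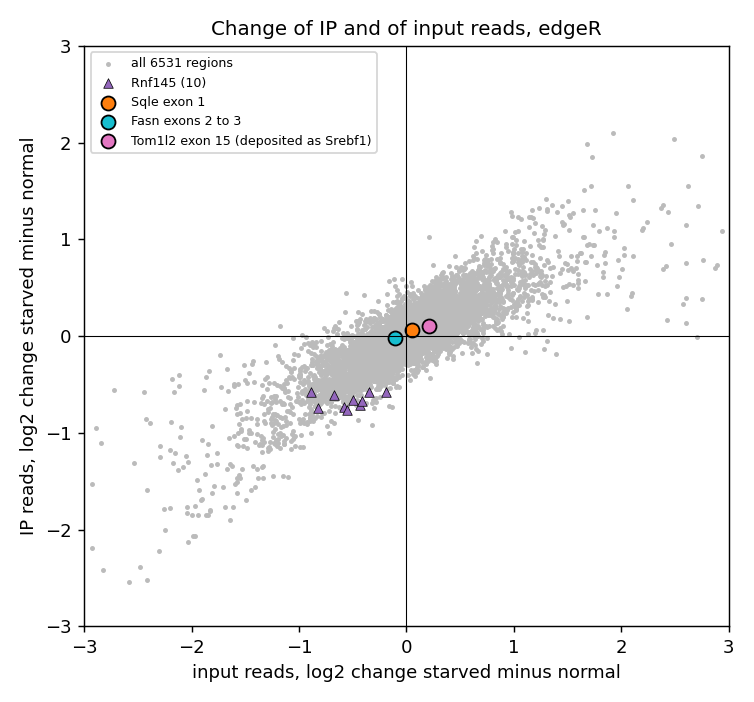
Log2 change from normal to starved MEFs of input reads (x axis) and of IP reads (y axis) for 6531 regions called in all 4 lists, fitted with edgeR (31 regions beyond 3 on either axis are not drawn). The regions of Sqle, Fasn and Tom1l2 lie between -0.10 and 0.21 on both axes, and the regions of Rnf145, a pathway gene, are marked by triangles.

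Calls over the genes' exons were shared more along replicate numbers than along conditions. Of their 34 regions, 13 were called in 1 list, 13 in 2, 6 in 3 and 2 in all 4. Of those in 2 lists, 3 were in both replicate 1 lists, 7 in both replicate 2 lists, 1 in both normal lists and 2 in both starved lists. Among all regions called in 2 lists, 49.2% were in the lists of 1 replicate number. By gene, these regions were 4 of Scd2, 2 of Sqle and 1 each of Fasn, Srebf1, Srebf2 and Hmgcs1, and exons of 1 transcript are not independent.

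The wider pathway was described with 60 other genes, 36 of which had a region over their exons and 12 a region in all 4 lists. In the main fits, which ignore the replicate number, edgeR called 0 of their 34 regions in all 4 lists. This held for the ratio, IP reads and input reads, and DESeq2 also called 0. With the replicate number as a block, edgeR called 13 lower for IP reads, 10 of them of Rnf145, and 1 of Rnf145 lower for input reads. Over all 6531 regions the block called 347 higher and 360 lower for IP reads and 161 and 186 for input reads. The labels do not say what the replicate number marks. At an unadjusted p under 0.05 in the main edgeR fits, 0 pathway regions passed for the ratio, beside 82 higher and 101 lower of all regions. For IP reads 1 was higher and 11 lower, 10 of them of Rnf145, beside 326 and 349 of all regions. For input reads 0 were higher and 2 lower, 1 of them of Rnf145, beside 263 and 282. The median log2 change was -0.11 for the ratio, -0.32 for IP reads and -0.20 for input reads, beside -0.01, 0.01 and 0.02 over all 6531 regions.

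Among the lists, the 19 genes from the mevalonate pathway to sterol had 4 regions in all 4 lists, over 4 genes. The 7 genes of SREBP processing had 11 over 2 genes, and 10 of these regions were of Rnf145. The 13 genes of cholesterol uptake and efflux had 8 over 2 genes. The 21 genes of fatty acid and lipid synthesis had 11 over 4 genes. Insig2, the paralogue of Insig1, had 1 region, over its last exon, in normal replicate 1 with 52 IP reads.

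GGAC was present in the exon part of 23 of 34 regions over the genes' exons (67.6%) and of 25 of 35 regions named for the genes with any exon (71.4%), against 5214 of 6460 regions called in all 4 lists (80.7%). Exon length differed, with a median of 243 bases for regions over the genes' exons and 438 bases for those called in all 4 lists. The sets also differed in calling, as 2 of the 34 regions over the genes' exons were in all 4 lists. Per kb of exon, GGAC occurred 4.93 times in regions over the genes' exons and 4.72 times in regions called in all 4 lists. GGACT was present in 32.4% and 49.2% of regions in turn. The single region of Hmgcs1 held no GGAC. The motif is a description of the sequence, and m6A itself was not measured in these files.

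The sterol regulatory element, the DNA site of SREBPs, was searched as TCACNCCA on both strands in the RefSeq promoter windows, from 250 bases before to 50 bases after the start (GRCm38.p6). The table held 9 windows for 6 of the 8 genes (Srebf1, Srebf2, Hmgcs1, Insig1, Fasn and Scap). A match was found in Srebf2 and Hmgcs1, and in 1433 of 32851 promoters in all (4.36%). The windows of Srebf1, Insig1, Fasn and Scap held no match. The matches in Srebf2 and Hmgcs1 are shown, each on the plus strand and in capitals.
Srebf2 promoter, chr15:82147097-82147124: tgacgcaccaTCACCCCAtgagccgctt
Hmgcs1 promoter, chr13:119690204-119690231: cgtcaccgtcTCACCCCActtcccaggt
The matches began 162 bases before the start of Srebf2 and 137 bases before that of Hmgcs1. Windows without the motif lack only these letters.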

How the data were processed

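YTHDF3 RIP-seq and input RNA of MEFs were sequenced for normal and 2 h starved cultures (2 replicates per condition). Per the paper's methods and the labels, the authors trimmed reads with Trimmomatic, aligned them to mm10 (TopHat2 2.0.13 in the submitters' processing notes), ran diffReps on each IP library with its input and named peaks with HOMER. For 3 lists the deposited IP and input values are a signal, reads times 1 factor for each library. Normal replicate 2 was deposited as counts. The authors also deposited the log2 ratio and p-value of each peak, which were used for the target thresholds only. Division by the factor gave whole reads within 0.02 for 100% of values. The lists do not name their input, and the one with the same condition and replicate label was assumed.

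Peaks with a fold of at least 2 and p under 0.0001 were kept and merged where they overlapped by at least 1 bp. The fold of a region was that of its highest peak, with the input value set to at least 3. Testing of regions found in all 4 lists used the quasi-likelihood test of edgeR 4.0.16 (R 4.3.3), with TMM normalization, Benjamini-Hochberg adjustment over 6531 regions and offsets for covered length in the IP and input fits. The ratio was fitted with a term for each culture. Exons came from GENCODE M21 and RefSeq, and 93.8% of 9651 annotated start sites lay within 10 bp of the RefSeq ones. Scaled reads per kb were set to the mean effective library size. The scripts were tested on simulated data. Library depth is not given in the sources used here, so precision is stated from reads in peaks.

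The members and gene lists were chosen with earlier results of these data known. All 8 members were named, with Insig2 whatever its values and other pathway genes only if a region passed a test, with the exception of Rnf145, which was added after its values were seen. Some items that this rule names are not reported here. Alternatives were other normalizations, DESeq2 1.42.0, a replicate block, a filter of 10 reads, 50% reciprocal overlap, peaks of at least 4-fold, reads of the highest peak, other fold cutoffs, a 200 bp motif window and leaving out each culture. Python 3.11.15, pandas 2.3.3, numpy 2.4.6, pysam 0.24.0 and matplotlib 3.10.9 were used.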

Additional observations from a re-analysis of the deposited data

How the results depend on the processing

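Of 96 log2 changes of the 3 regions under alternative settings, 81 kept the sign of the reported value and 15 changed it, and none reached an adjusted p of 0.05. The 82 counts of called regions were 0 under every alternative that gave one, out of at most 3 regions, so they carry no direction. The sign of the Sqle ratio turned to 0.002 with the reads of the highest peak, and that of the Fasn IP reads to 0.014 without normalization. Leaving out each culture in turn gave log2 changes of -0.035 to 0.29 for the Fasn ratio, -0.137 to 0.12 for the Sqle ratio, -0.135 to -0.103 for the Tom1l2 ratio, -0.026 to 0.214 for Tom1l2 IP reads, 0.053 to 0.357 for Tom1l2 input reads, -0.36 to 0.416 for Fasn IP reads, -0.014 to 0.141 for Sqle IP reads, -0.504 to 0.228 for Fasn input reads and -0.161 to 0.30 for Sqle input reads. The cause was not tested, and a condition left with 1 culture was assumed to vary like the other. With 50% reciprocal overlap 2 of the 3 regions remained, and with peaks of at least 4-fold none, so that setting gave no value. By exon overlap in place of the name, 2 regions were in all 4 lists.

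Cultures that share a replicate number deviated together (r = 0.27 for the ratio, 0.45 for IP reads and 0.28 for input reads across regions), but the labels do not say what the number marks. With the replicate number as a block the log2 change of the Fasn IP reads was 0.010, and none of the 3 regions was called. Over all regions the block moved the calls for IP reads from 12 higher and 61 lower to 347 and 360, and for input reads from 18 and 53 to 161 and 186. Of 34 pathway regions it called 13 lower for IP reads, 10 of them of Rnf145, and 1 of Rnf145 lower for input reads.

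Over all regions, DESeq2 called 67 higher and 113 lower for IP reads and 42 and 80 for input reads. The reads of the highest peak gave 1 and 8 for IP reads and 0 and 4 for input reads. Leaving out 1 culture gave 7 to 83 higher and 32 to 118 lower for IP reads, and 25 to 101 higher and 64 to 128 lower for input reads. For the ratio it gave 1 to 2 higher and 0 to 1 lower. The 1.8-fold cutoff gave 31 higher and 22 lower of all regions, against 96 and 88 at 1.5-fold and 17 and 13 at 2-fold, with 0 of the 3 regions throughout. In these 3 regions a fall by any of these cutoffs would have ended below the 2-fold limit of calling.

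The lists hold called peaks alone, with 2 cultures per condition. A region just under 2-fold is missing, most folds of these genes were near 2, and calls of 1 gene in fewer than 4 lists could not be tested.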

Other observations

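Rnf145, a ubiquitin ligase of the endoplasmic reticulum in the list of SREBP processing genes, was chosen after its values were seen. It had 11 regions over its exons, 10 of them in all 4 lists. The log2 change of IP reads from normal to starved MEFs was below 0 in 10 of 10 regions, from -0.76 to -0.57, and that of input reads in 10 of 10, from -0.89 to -0.19. The IP/input ratio was lower in 7 of 10, from -0.41 to 0.30. Without a replicate block none passed, with edgeR adjusted p of at least 0.197 for IP reads and 0.206 for input reads. With the block, edgeR called 10 lower for IP reads and 1 lower for input reads. The 10 regions are exons of 1 transcript. Over its last exon, which had the lowest input change and the highest ratio change of the 10, scaled IP reads were 1459 and 1384 per kb in normal and 976 and 932 per kb in starved MEFs. Scaled input reads there were 299 and 347 per kb in normal and 180 and 169 per kb in starved MEFs.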
